A study of Mus musculus with 6 samples.

Results

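The miR-221 and miR-222 pair consists of 4 mature miRNAs, mmu-miR-221-3p, mmu-miR-221-5p, mmu-miR-222-3p and mmu-miR-222-5p. They are both arms of both hairpins and make up 4 of the 1966 mature miRNAs listed for mouse extracellular vesicles (EVs). Of the 1966, 771 had a count in any library after rounding. The 4 members were chosen by name and not by a rule on their values, although earlier results of these data were known. Small RNA was sequenced from 3 EV preparations of colon explants and 3 of bone marrow–derived dendritic cells (BMDCs), and the comparison asks which miRNAs of gut EVs are also carried, and at what level, by EVs of a cultured dendritic cell. Colon explants were kept in culture for 16 hours in medium with exosome-depleted serum, and their EVs were recovered by differential centrifugation followed by an iodixanol gradient, of which fraction 2 was sequenced. BMDCs were grown for 7 days with GM-CSF, a myeloid growth factor, in complete RPMI, whose serum the paper does not describe as exosome-depleted. The EVs of BMDCs were recovered by differential centrifugation. The labels give the gradient to the colon preparations alone, while the Results text of the paper names it for both sources, so that its use for BMDC EVs is unclear. All 6 libraries carry the strain label Rab27A fl/fl, a floxed allele of a GTPase of exosome secretion, and the labels name no Cre. Source and culture medium, and the gradient if the labels hold, changed together and cannot be told apart. Nothing in the labels says that the replicates came from separate animals, so the p-values measure the spread between these preparations, which may be technical.

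The hairpins mir-221 and mir-222 lie next to each other and are known to be cut from one primary transcript. Dicer cuts each hairpin into a duplex, from which one arm, here usually the 3p arm, is kept in Argonaute while the other, the passenger arm, is mostly lost. The 3p arms share a seed, the bases that pair with target messages, and are known repressors of Cdkn1b, an inhibitor of the cell cycle, and of Kit, a receptor of haematopoietic progenitors. In the gut they are known to restrain Th17 cells by repressing Maf and Il23r.

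The mature sequences show why the 3p arms are read as a pair. They are given 5′ to 3′ with the seed (bases 2 to 8) in capitals, from RefSeq on GRCm38.p6, in which 3 of the 4 members were matched.
miR-221-3p: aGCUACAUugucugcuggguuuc
miR-222-3p: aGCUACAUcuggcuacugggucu
miR-221-5p: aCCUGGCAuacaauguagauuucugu
The 3p arms are each 23 bases long. Their first 8 bases are identical, and 11 of 23 positions are identical when the sequences are aligned without gaps, so that the differences lie behind the seed. The seed of miR-221-5p is another one. A search of the RefSeq mature miRNAs for GCUACAU at bases 2 to 8 returned 3 names, the 3p arms and miR-1928, whose sequence follows.
miR-1928: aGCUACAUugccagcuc
This other miRNA with the seed is annotated on chromosome 1 (chr1:74206562-74206578, minus strand) and had 0 counts in each of the 6 libraries. A count of 0 allows a level of up to 5.96 to 30.04 CPM, depending on the library. CPM are counts per 1e6 counts of a library, here after the scaling described below. Among the RefSeq mature miRNAs with this seed, only the pair was thus counted at this depth. Names without a RefSeq sequence were not searched.

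The hairpins are shown next with the arms in capitals, since the arms are what was counted. In Mir221 (chrX:19146294-19146388, minus strand, 95 bases) the first stretch of capitals is miR-221-5p and the second is miR-221-3p. In Mir222 (chrX:19146893-19146971, minus strand, 79 bases) the capitals mark miR-222-3p.
Mir221: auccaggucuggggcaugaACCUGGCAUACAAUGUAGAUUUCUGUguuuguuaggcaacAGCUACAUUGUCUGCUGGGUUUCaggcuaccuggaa
Mir222: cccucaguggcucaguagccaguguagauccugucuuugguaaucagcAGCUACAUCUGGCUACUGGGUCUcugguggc
On the minus strand mir-222 comes first and mir-221 follows 504 bases downstream, and together they span 678 bases. The coordinates were the same in RefSeq and in the GENCODE vM21 annotation of GRCm38. No other annotated gene overlaps them, so that the pair is intergenic in this annotation. The nearest gene is Gm14636, a noncoding transcript on the same strand whose end lies 10009 bases away, upstream of mir-222.

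Library totals ran from 173358 to 645303 counts in colon EVs and from 83997 to 178454 counts in BMDC EVs. The 220 miRNAs that reached 10 counts in 3 or more libraries were tested. Levels are given as CPM after scaling of the libraries by the trimmed mean of M values (TMM). On this scale 1 count corresponded to between 1.99 CPM in the deepest library, colon EV replicate 1, and 10.01 CPM in the shallowest, BMDC EV replicate 2. A level in EVs is a share of the miRNA counted there, so that fewer vesicles of a cell type and fewer copies per vesicle cannot be told apart. Intervals on shares of counts are exact Clopper-Pearson 95% intervals, which cover counting error only. Where 3 values are listed for a source, they belong to its replicates 1, 2 and 3, in that order.

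Both 3p arms were higher in BMDC EVs than in colon EVs, miR-222-3p by more than miR-221-3p. The level of miR-221-3p was 612, 795 and 634 CPM in the colon EV libraries and 3050, 2494 and 2724 CPM in the BMDC EV libraries. These levels rest on 101 to 308 counts in colon EVs and on 249 to 541 counts in BMDC EVs. The lowest BMDC library was well above the highest colon library, and neither source held a library that stood apart from its others. The mean was 680 ± 99.9 CPM in colon EVs and 2756 ± 279 CPM in BMDC EVs (SD, n = 3 each), a 4.05-fold difference. The log2 fold change was 2.02 (SE 0.227), with an adjusted p of 2.26e-07 by edgeR's quasi-likelihood test (Benjamini-Hochberg).

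The level of miR-222-3p was 135, 129 and 163 CPM in the colon EV libraries and 1049, 1262 and 1163 CPM in the BMDC EV libraries. The counts behind it were lower, 68, 26 and 26 in colon EVs and 162, 126 and 231 in BMDC EVs. Here too the sources did not overlap and the libraries of each source lay close together. The mean was 142 ± 18.2 CPM in colon EVs and 1158 ± 107 CPM in BMDC EVs (SD, n = 3 each), an 8.13-fold difference. The log2 fold change was 3.03 (SE 0.300), with an adjusted p of 4.31e-08 by edgeR's quasi-likelihood test (Benjamini-Hochberg).

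Thus 2 of the 2 members that could be tested were called higher in BMDC EVs, where 40.5% of all tested miRNAs were (89 of 220). That the libraries of a member did not overlap, with BMDC EVs above, held for all 4 members, beside 42.7% of the tested miRNAs. Being higher in BMDC EVs was therefore common among these miRNAs, and the calls alone do not set the pair apart. The median log2 fold change of all tested miRNAs was 0.19, and by log2 fold change miR-222-3p stood at place 45 and miR-221-3p at place 65 of 220. By level, miR-221-3p was between places 78 and 87 of the tested miRNAs in colon EVs and between places 34 and 40 in BMDC EVs. For miR-222-3p the places were 131 to 144 in colon EVs and 57 to 64 in BMDC EVs.

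**Figure D1:**
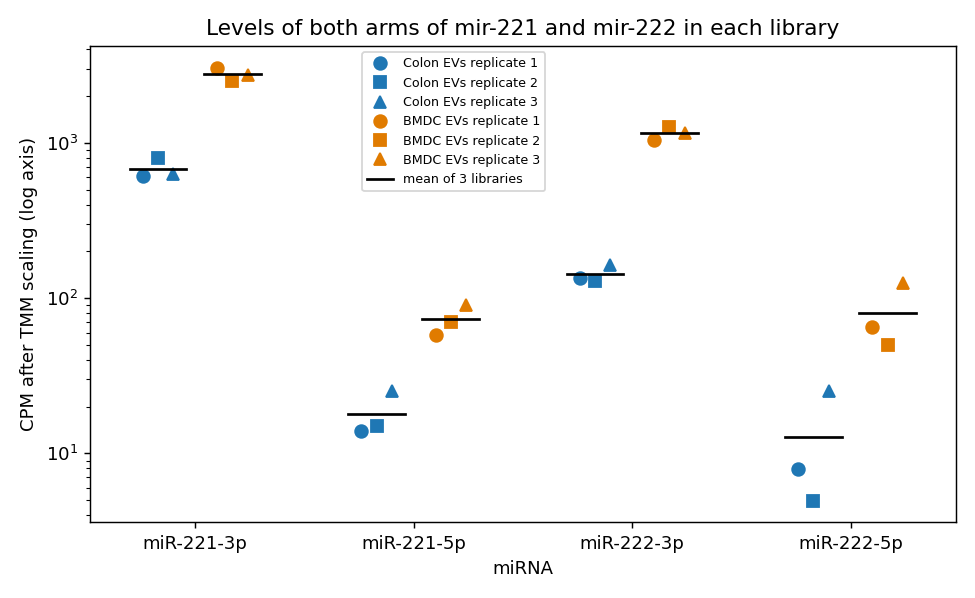
Level of each member in each library, in CPM after TMM scaling on a log axis. Points are libraries, coloured by source and shaped by replicate, and black lines are means of 3 libraries. For all 4 members the BMDC EV libraries lie above the colon EV libraries, and the 3p arms lie far above the 5p arms.

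As the 3p arms share their seed, their levels were also summed. The sum was 747, 924 and 797 CPM in the colon EV libraries and 4099, 3755 and 3886 CPM in the BMDC EV libraries. The means were 823 ± 91.4 and 3913 ± 173 CPM (SD, n = 3 each), a 4.76-fold difference without overlap (two-sided exact permutation test, p = 0.1, the smallest that 3 against 3 libraries allow). Without any scaling, the pair took 0.0583% to 0.0799% of the counts of a colon EV library and 0.433% to 0.499% of a BMDC EV library.

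The 5p arms were rare in both sources. For miR-221-5p, 7, 3 and 4 counts were present in the colon EV libraries and 9, 7 and 18 counts in the BMDC EV libraries. In CPM these were 13.9, 14.9 and 25.1 in colon EVs and 58.3, 70.1 and 90.6 in BMDC EVs. The colon libraries were thus lower without exception, although with counts of 3 to 7 each of them is imprecise. The means, 18.0 ± 6.21 and 73.0 ± 16.4 CPM (SD, n = 3 each), differed 4.06-fold, close to the 4.05-fold of its partner arm.

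For miR-222-5p, 4, 1 and 4 counts were present in the colon EV libraries. In the BMDC EV libraries the deposited counts were 9.5, 5 and 25.25, entered as 10, 5 and 25. In CPM these were 7.94, 4.97 and 25.1 in colon EVs and 64.7, 50.1 and 126 in BMDC EVs. Replicate 3 was the highest library of both sources, and the sources did not overlap. The means, 12.7 ± 10.9 and 80.2 ± 40.2 CPM (SD, n = 3 each), differed 6.33-fold, or 2.66 on the log2 scale. Single libraries moved this value, to 3.38 without colon EV replicate 3, to 3.35 without BMDC EV replicate 2 and to 2.04 without colon EV replicate 2, all on the log2 scale.

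Neither 5p arm had 10 counts in 3 libraries, miR-221-5p reaching 10 in 1 library and miR-222-5p in 2, so that neither entered the test over all miRNAs. In the exact permutation test of single values, both gave p = 0.1 (two-sided), the smallest possible. When the filter on low counts was dropped, edgeR's quasi-likelihood test (Benjamini-Hochberg) gave an adjusted p of 0.116 for miR-221-5p and of 0.0155 for miR-222-5p. With edgeR's own filter the adjusted p was 0.00147 for miR-221-5p and 7.38e-04 for miR-222-5p. Whether the 5p arms were called higher in BMDC EVs thus depended on the filter.

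The balance between the arms of a hairpin was then compared, since a ratio within a library is not affected by how libraries are scaled. The 3p arm prevailed in both hairpins and in all 6 libraries. Of the counts of mir-221, the 5p arm made up 2.22%, 1.84% and 3.81% in the colon EV libraries and 1.88%, 2.73% and 3.22% in the BMDC EV libraries. The means were 2.62% ± 1.04 and 2.61% ± 0.681 (SD, n = 3 each), and the sources overlapped. With the counts of a source added up, the 5p share was 2.40% (interval 1.32% to 3.996%) in colon EVs and 2.63% (1.82% to 3.65%) in BMDC EVs. The difference in log2 of 3p over 5p was 0.06 (SE 0.392), BMDC minus colon, with p = 0.9 in a two-sided exact permutation test.

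Of the counts of mir-222, the 5p arm made up 5.56%, 3.70% and 13.3% in the colon EV libraries. In the BMDC EV libraries it made up 5.81%, 3.82% and 9.77%. Within each source replicate 3 was the highest and replicate 2 the lowest, the sources overlapped, and the means were 7.53% ± 5.11 and 6.47% ± 3.03 (SD, n = 3 each). The difference in log2 of 3p over 5p was 0.34 (SE 0.630), with p = 0.6 in a two-sided exact permutation test. The intervals of the summed shares, 3.24% to 12.8% in colon EVs around 6.98% and 5.16% to 9.62% in BMDC EVs around 7.16%, leave room for a difference in either direction. A change of arm balance with source was therefore not seen in either hairpin. The exact test could not have called one, as 3 against 3 libraries allow no p under 0.1. The overlap does not show that the balance was the same.

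The passenger arm of mir-222 was better represented than in most other hairpins, while that of mir-221 was nearer the middle. Over the 139 hairpin names with both arms in the table and at least 1 arm tested, the less abundant arm made up a median of 0.725% of the summed counts in colon EVs and 1.89% of those in BMDC EVs. The share of mir-221 was higher than that of 77 of these names in colon EVs and of 73 in BMDC EVs. Its interval in BMDC EVs, 1.82% to 3.65%, included the median there, while its interval in colon EVs, 1.32% to 3.996%, lay above the median. The share of mir-222 was higher than that of 103 and 96 names. In 60 of the 139 names the 3p arm was the more abundant, as it was in the pair. The ratio between the hairpins was closer to 1 for the 5p arms than for the 3p arms in all 6 libraries. The log2 ratio of miR-221-5p to miR-222-5p was 0.65 ± 0.62 in colon EVs and −0.05 ± 0.46 in BMDC EVs (SD, n = 3 each), with overlap and p = 0.2 in a two-sided exact permutation test.

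The ratio of miR-221-3p to miR-222-3p was higher in each colon EV library than in any BMDC EV library, and the call on this shift depended on the fit. In the colon EV libraries, 4.53, 6.15 and 3.88 counts of miR-221-3p were present for each count of miR-222-3p. In the BMDC EV libraries the ratio was 2.91, 1.98 and 2.34. miR-221-3p was the more abundant in all 6 libraries, and the lowest colon ratio was above the highest BMDC ratio. Put as a share, miR-222-3p made up 18.1% (interval 14.3% to 22.4%), 14.0% (9.34% to 19.8%) and 20.5% (13.8% to 28.5%) of the pair in the colon EV libraries. In the BMDC EV libraries it made up 25.6% (22.2% to 29.2%), 33.6% (28.8% to 38.6%) and 29.9% (26.7% to 33.3%). The interval of colon EV replicate 1 overlapped that of BMDC EV replicate 1, and the interval of colon EV replicate 3 overlapped those of BMDC EV replicates 1 and 3, so that the separation of single libraries was narrow.

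The mean log2 ratio of miR-221-3p to miR-222-3p was 2.24 ± 0.34 in colon EVs and 1.25 ± 0.28 in BMDC EVs (SD, n = 3 each), a difference of −0.99 (SE 0.252). As geometric means, the ratio was 4.71 for colon EVs and 2.37 for BMDC EVs. The two-sided exact permutation test gave p = 0.1, the smallest possible. A test with more power came from edgeR's test of differential usage, run within 17 clusters of neighbouring hairpins. A cluster was a run of annotated hairpins on the same strand in which each lies under 10 kb from the next. Arms that several hairpins share were left out, and each hairpin was entered by the more abundant of its remaining tested arms. In edgeR's usage test the shift within the pair had an adjusted p of 0.0228 (Benjamini-Hochberg over the 17 clusters). Of the clusters, 29.4% (5 of 17) were called. This call was lost with the replicate number as a block (−0.99, adjusted p = 0.0885) and without the filter on low counts (−0.99, adjusted p = 0.228) in edgeR's usage test. It was also lost without colon EV replicate 2 (difference −0.81, adjusted p = 0.0945), without BMDC EV replicate 2 (−0.85, adjusted p = 0.0871) and without BMDC EV replicate 3 (−0.98, adjusted p = 0.101) in edgeR's usage test, while the direction was the same with each of the 6 libraries left out.

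**Figure D2:**
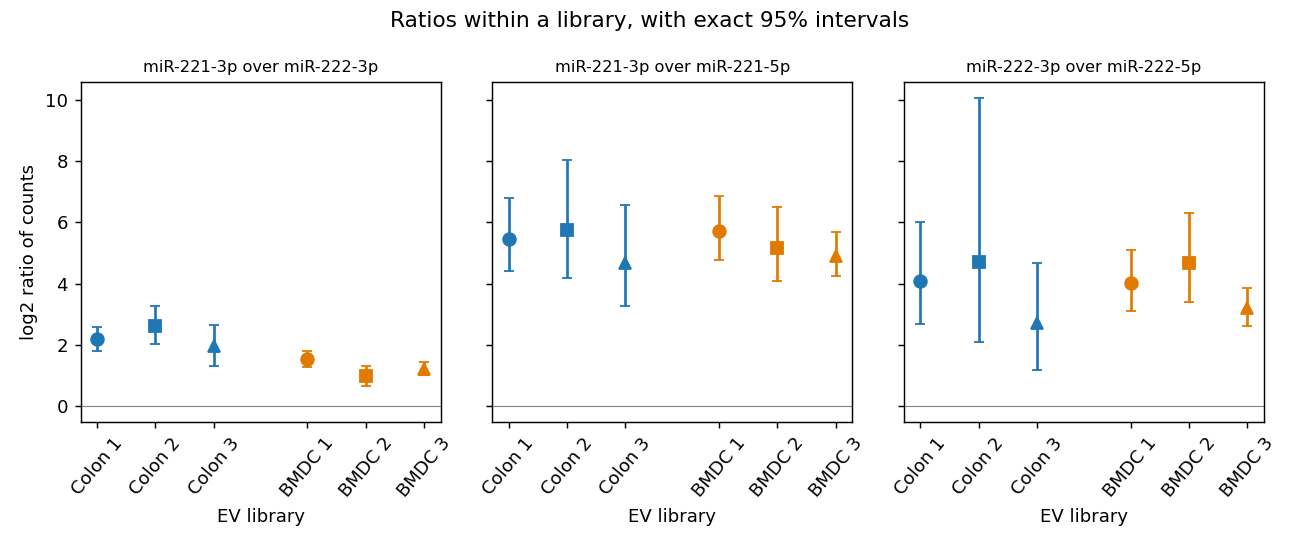
Log2 ratio of raw counts in each library, with exact 95% intervals that cover counting error, for the 3p arms of the pair and for both arms of each hairpin. The ratios of miR-221-3p to miR-222-3p are higher in the 3 colon EV libraries than in the 3 BMDC EV libraries, and the arm ratios overlap.

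Among the 17 clusters, which held 39 hairpins, the pair was neither the most nor the least uneven. Its members differed by 1.01 in log2 fold change, the sixth largest range, beside a median range of 0.79. The called clusters with larger ranges were miR-194-2-3p with miR-192-5p (2.34), miR-99b-5p with let-7e-5p and miR-125a-5p (1.49), and miR-191-5p with miR-425-5p (1.08). Here, and in miR-215-5p with miR-194-1-3p (1.08, not called), the mir-194 hairpin was entered by its 3p arm, as miR-194-5p is shared. miR-194-5p, an epithelial marker, had a log2 fold change of −5.94, as had miR-192-5p, beside −3.59 for miR-194-2-3p. The ranges of these mir-194 clusters, and with them the sixth place of the pair, thus depended on the arm entered. The fifth called cluster, miR-27b-3p with miR-23b-3p, had a range of 0.85. Both other clusters of chromosome X, miR-351-5p with miR-503-5p and miR-322-5p and miR-501-3p with miR-532-5p, were likewise higher in BMDC EVs, and their members differed by 0.79 and 0.67, with adjusted p of 0.457 and 0.218 in edgeR's usage test.

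**Figure D3:**
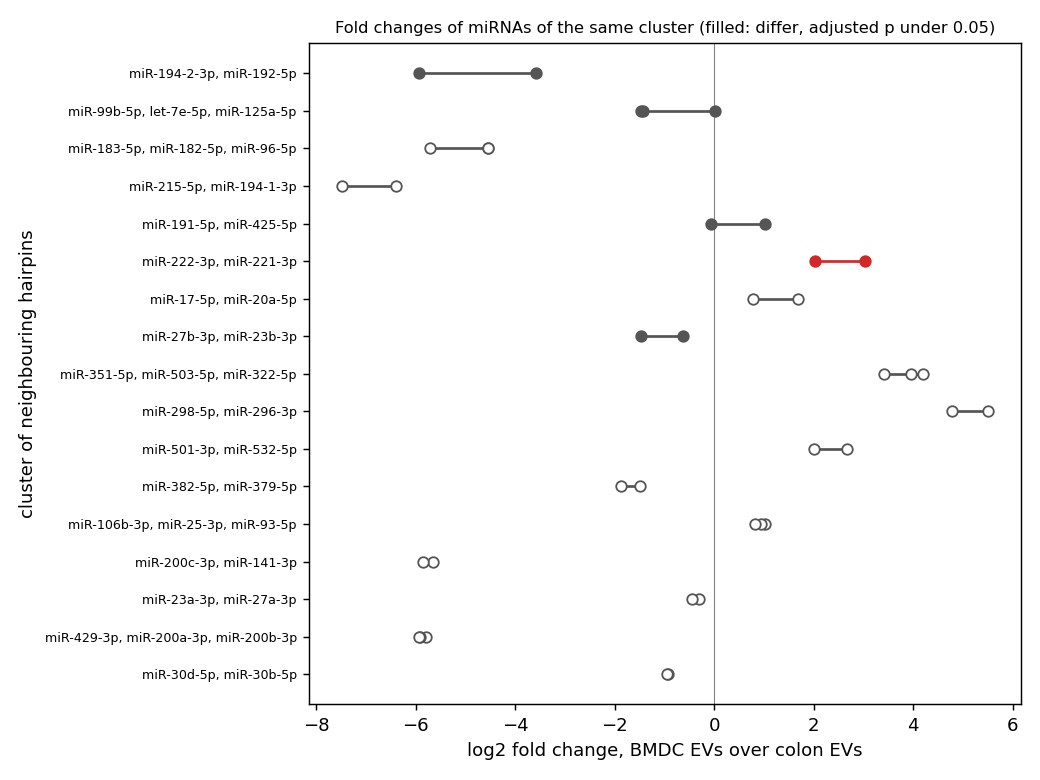
Log2 fold change (BMDC EVs over colon EVs) of each miRNA in the 17 clusters of neighbouring hairpins, ordered by range, with the pair in red. Filled points mark the 5 clusters whose members differed in edgeR's usage test, and the pair ranks sixth by range at 1.01.

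The miRNAs whose profile over the 6 libraries was nearest to each 3p arm were not the other arm of the pair. Nearness was the root mean square difference of log2 CPM, centred on the mean of the 6 libraries, with edgeR's prior count of 2 added, which draws miRNAs with few counts together. The profiles come from the same 6 libraries, so that an error in the scaling of a library is common to them. Nearest to miR-221-3p were miR-744-5p (0.135), miR-139-3p (0.173) and miR-423-5p (0.187), with log2 fold changes of 2.21, 1.88 and 1.80. Nearest to miR-222-3p were miR-25-5p (0.0739), miR-423-3p (0.154) and miR-503-5p (0.193), with log2 fold changes of 3.51, 3.14 and 3.95. With 0.5 added to each count instead, an alternative chosen after the data were seen, the neighbours of miR-221-3p were the same 3 in the same order. Those of miR-222-3p became miR-423-3p (0.148), miR-34a-5p (0.194) and miR-25-5p (0.237). miR-503-5p, with as few as 2 counts in a library, moved to place 19 (0.463), and miR-25-5p had as few as 3, so that the nearness of both depended on the prior. With the prior count of 2, the distance between the 3p arms of the pair was 0.530, which put miR-222-3p at place 32 from miR-221-3p and miR-221-3p at place 35 from miR-222-3p. With 0.5 added it was 0.555, at places 31 and 26. The arms of mir-423, miR-423-5p and miR-423-3p, were thus divided between the lists of the pair's neighbours.

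Beside the pair, miRNAs known for inflammation were looked at as a list of 10, of which 9 were tested. In edgeR's test 6 were higher in BMDC EVs, 2 were higher in colon EVs and 1 was not called, with a median log2 fold change of 3.68 beside 0.19 for all tested miRNAs. miR-155-5p, which promotes inflammatory responses of myeloid cells, had a log2 fold change of 5.07 (SE 0.340). miR-146a-5p, a brake on signalling to NF-κB, had one of 3.68 (SE 0.262). miR-125b-5p was lower in BMDC EVs at −2.65 (SE 0.301), and miR-147-3p, at −0.01 (SE 0.357), was the one not called. miR-212-3p was the member of the list that was not tested, with 0 counts in all colon EV libraries. Both 3p arms of the pair had smaller log2 fold changes than each of the 6 that were higher in BMDC EVs. The gap of miR-222-3p (3.03, SE 0.300) to the lowest of these, miR-34a-5p (3.10, SE 0.233), was smaller than either SE.

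As the hairpins lie on chromosome X, the other tested miRNAs whose hairpins are all on that chromosome were counted, 19 without the pair. Of these, 11 were called higher in BMDC EVs, 3 higher in colon EVs and 5 were not called by edgeR's test. Their median log2 fold change was 2.00. Of all tested miRNAs 40.5% (89 of 220) were called higher in BMDC EVs, and the median was 0.19. The 19 include both arms of some hairpins, such as miR-223, so they are not independent of each other. The range was wide, from 5.14 for miR-223-5p, an arm of a hairpin of myeloid cells, and 4.21 for miR-351-5p to −5.20 for miR-224-5p. miR-98-5p, a let-7 family member, had a log2 fold change of 0.34 (adjusted p = 0.165, edgeR's quasi-likelihood test).

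The sources differed in markers of cell types, of which only the haematopoietic were called in the direction of the pair. The 6 haematopoietic markers (both arms of miR-142a and miR-223, miR-150-5p and miR-342-3p) were all called higher in BMDC EVs, with a median log2 fold change of 4.65 and values from 3.31 for miR-150-5p to 5.14 for miR-223-5p, each larger than that of either 3p arm. Their summed level was 4236 to 7522 CPM in colon EVs, so none of the colon preparations was without them, and 137558 to 169132 CPM in BMDC EVs. The 9 epithelial markers, the miR-200 family and gut miRNAs such as miR-192-5p and miR-215-5p, were all called lower in BMDC EVs, with a median log2 fold change of −5.92. Their sum was 248132 to 382729 CPM in colon EVs and 3393 to 6699 CPM in BMDC EVs. The directions of these lists thus went with the labelled sources, although neither source was without the markers of the other.

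Other cells in which miR-221 and miR-222 are known were less well covered. Of 7 markers of smooth muscle and stroma, 2 were tested and both were lower in BMDC EVs (median −3.55), with sums of 1469 to 2657 CPM in colon EVs and 64.7 to 210 CPM in BMDC EVs, where miR-145a-3p and miR-214-3p were at 0. The endothelial markers, both arms of miR-126a, were called lower in BMDC EVs (median −2.34), with sums of 785 to 1317 CPM in colon EVs and 194 to 541 CPM in BMDC EVs. Neither of the 2 red cell markers was tested, their sums were 0 to 56.5 CPM in colon EVs and 10.1 to 30.04 CPM in BMDC EVs, and miR-144-3p was at 0 in BMDC EVs. The part of any of these cell types in the levels and in the balance of the pair was not tested.

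**Figure D4:**
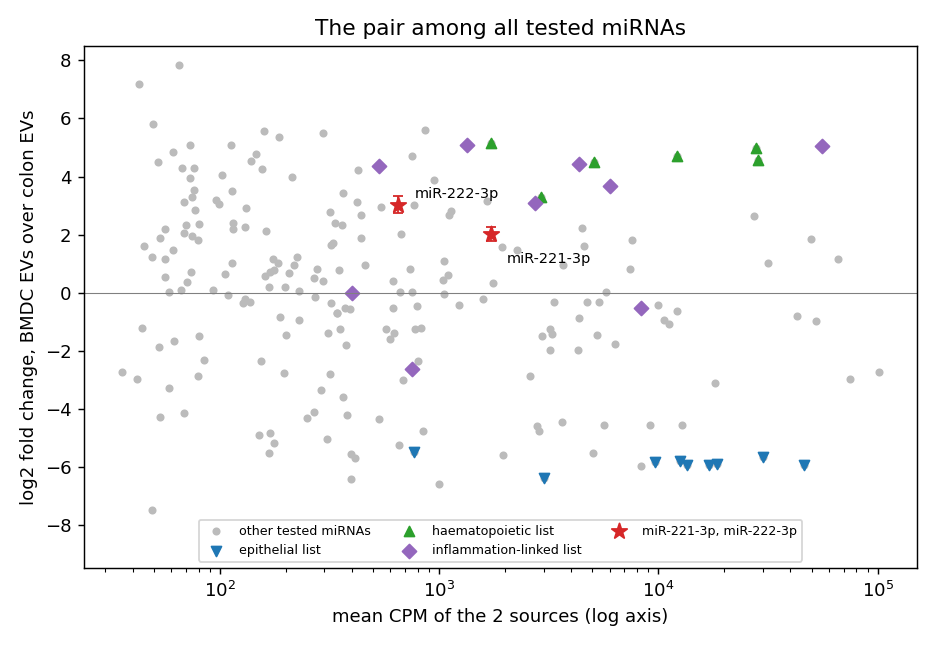
Log2 fold change of each of the 220 tested miRNAs against its mean CPM over both sources (log axis), with the 3p arms of the pair as red stars (bars, SE) and 3 lists in colour. The pair lies at 2.02 and 3.03, below the haematopoietic markers, which lie between 3.31 and 5.14, and far above the epithelial markers.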

How the data were processed

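Small RNA of 3 colon EV and 3 BMDC EV preparations was extracted with a miRNeasy Micro kit and made into libraries with QIAseq reagents for miRNA. What the authors deposited are estimated counts of each mature miRNA, which are not normalized and not always whole. The submitters' processing notes name STAR 2.7.6a, featureCounts 1.6.3, DESeq2 1.30.1, GRCm38 and mm10. How reads matching several miRNAs were divided, and whether molecular identifiers were counted, is not given in the sources used here. The 3p arms of the pair share a seed but differ behind it, and to the extent that reads were divided their counts are uncertain.

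Columns were matched to samples by the labels (0 unmatched). Counts were rounded, and the sources were compared in R 4.3.3 with edgeR 4.0.16 (quasi-likelihood test, TMM, no block) over miRNAs that reached 10 counts in 3 or more libraries, with Benjamini-Hochberg adjustment and a threshold of 0.05. Fold changes are BMDC EVs over colon EVs. Log2 ratios had 0.5 added to each count, and profiles were compared with a prior count of 2, or with 0.5 added to each count as an alternative chosen after the data were seen. Hairpin positions were taken from GENCODE vM21, in which 208 of the 220 tested names were matched and 12 were not. Library totals ran from 83997 to 645303, and after TMM scaling 3 counts correspond to 5.96 to 30.04 CPM.

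Named miRNAs are the members, those sharing their seed, the 3 nearest profiles of each 3p arm, lists of inflammation-linked, chromosome X and cell type marker miRNAs, and clusters. The members and lists were chosen with earlier results of these data known. Alternatives were DESeq2 1.42.0, limma 3.58.1 with voom, other scalings and filters, unrounded counts, the replicate block and leaving out each library. Scripts were tested on simulated data. Figures were drawn with matplotlib 3.10.9.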

Additional observations from a re-analysis of the deposited data

How the results depend on the processing

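The log2 fold change of miR-221-3p was between 1.52 and 2.54 over 15 alternatives (adjusted p between 1.63e-12 and 1.21e-04), and that of miR-222-3p was between 2.51 and 3.49. Both passed the threshold in all 15, which comprised edgeR with other scalings and filters, unrounded counts, DESeq2, limma with voom, the replicate block and each library left out. Between 133 and 231 miRNAs were called, beside 169. Scaling by library size alone raised the median of all tested miRNAs from 0.19 to 0.64, so fold changes are best read relative to it, and 60% of calls were then higher in BMDC EVs, beside 52.7%.

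The balance of miR-221-3p to miR-222-3p had the same sign in all 11 alternatives. Its call was lost without the count filter (−0.99, adjusted p = 0.228, edgeR), with the replicate block (−0.99, adjusted p = 0.0885), and without colon EV replicate 2, BMDC EV replicate 2 or BMDC EV replicate 3. With each library left out it ranged from −1.14 to −0.81 (adjusted p between 0.0284 and 0.101). The cause was not tested. Without the filter, miR-222-5p passed the threshold (2.30, adjusted p = 0.0155) and miR-221-5p did not (1.56, adjusted p = 0.116). With edgeR's own filter both passed it, miR-221-5p at 1.92 (adjusted p = 0.00147) and miR-222-5p at 2.69 (adjusted p = 7.38e-04). With each library left out, the log2 fold change of miR-222-5p ranged from 2.04 to 3.38 and that of miR-221-5p from 1.57 to 2.53. The arm balances changed sign among alternatives, between −0.25 and 0.26 for mir-221 and between −0.15 and 0.69 for mir-222. No call was possible in the exact test, whose p cannot go under 0.1. The unfiltered edgeR usage test, the only other one, gave adjusted p of 0.948 for mir-221 and 0.901 for mir-222.

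The replicate numbers are shared by label only. Deviations of same-numbered libraries correlated at −0.14, −0.06 and −0.13, so the numbers were not taken to pair them. With the replicate block 164 miRNAs were called, and the 3p arms were at 2.03 and 3.02. DESeq2, limma and the replicate block gave no value for the 5p arms, which are under the filter, nor did the replicate block for the arm balances. With 1 to 7 counts per colon EV library, the 5p arms are limited by depth.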
